A study of Mus musculus with 12 samples.

Results

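The E2F transcription factors E2f1 to E2f8 and their DNA-binding partners Tfdp1 and Tfdp2, which encode the DP proteins, were examined in a mouse model of chronic myeloid leukemia (CML). These 10 genes were taken by name from the 46103 genes listed for each library, with numbered copies of a gene summed. Each of the 10 was listed once and was above 0 in all 12 libraries, and all 10 passed the filter for testing (at least 1 RPKM, reads per kb of transcript scaled to the reads of the library, in at least 3 libraries), E2f2 with only 5 such libraries. The libraries were made from 100 sorted BCR-ABL1+ cells each, taken in the immature LSK gate (no lineage markers, with Sca1 and c-Kit) from bone marrow and spleen of leukemic C57BL/6 mice. DP cells carry CD27 and the G0 marker G0M, a fluorescent fusion with a mutant of the cell cycle inhibitor p27 that is held in the Rosa26 locus and switched on by Vav1-Cre in blood cells. SP cells carry CD27 but not G0M. Both populations were taken from mice given vehicle (DP, SP) or imatinib, a drug that blocks BCR-ABL1 kinase activity, once daily by gavage (IMDP, IMSP), with 3 libraries per group. In all 4 groups the leukemia came from marrow of 5FU-treated donors that was transduced with a BCR-ABL1 retrovirus and given to irradiated recipients. Nothing in the labels says whether the libraries of a group came from separate mice, so p-values measure the spread between these libraries.

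E2F proteins bind the promoters of genes for DNA replication, nucleotide synthesis and the cell cycle. E2F1, E2F2 and E2F3 activate these genes once cyclin-dependent kinases have phosphorylated the RB protein that masks them, whereas E2F4 and E2F5 act mainly with the RB relatives p107 and p130 to hold the genes silent in resting cells. E2F6 represses through Polycomb-like complexes without RB proteins, and the atypical members E2F7 and E2F8 bind DNA without a DP partner, are themselves made late in the G1 and S phases as E2F targets, and switch E2F targets off. All other E2F proteins need DP1 (Tfdp1) or DP2 (Tfdp2) to bind DNA.

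The reads behind the RPKM values came to between 11.4 and 20.6 M per library, and 26 to 3120 reads lay behind each value of a member. The sort was checked on its markers. Kit, Ly6a (Sca1) and Cd27 were present in every library. Ly6a itself differed, at 17.8 to 20.8 RPKM in IMDP and 4.71 to 9.48 RPKM in IMSP cells, and overlapped between DP (5.61 to 18.3) and SP cells (3.12 to 6.89). Mki67, a proliferation gene, averaged 14.7 ± 5.70 and 8.16 ± 1.67 RPKM (SD, n = 3) in DP and IMDP cells and 54.2 ± 3.42 and 61.1 ± 8.39 RPKM in SP and IMSP cells. Cdkn1b, to which the p27 part of G0M could add reads, averaged 6.66 to 8.02 RPKM in the 4 groups. Genes of other lineages also varied between the groups. The summed level of 7 mast cell and basophil genes ranged from 62.4 to 271 RPKM in DP libraries and 13.1 to 169 RPKM in IMDP libraries, against 7.31 to 15.0 and 5.59 to 18.6 RPKM in SP and IMSP libraries, with Cma1 and Mcpt4 at 0 in all SP and IMSP libraries. The sum of 6 erythroid genes ranged from 201 to 245 and 56.8 to 221 RPKM in DP and IMDP, and from 49.8 to 144 and 9.43 to 71.6 RPKM in SP and IMSP libraries. That of 7 neutrophil genes ranged from 65.2 to 1310 and 64.9 to 263, and from 356 to 2460 and 471 to 2050 RPKM, in the same order. The sums for 6 macrophage genes (3.21 to 37.3 RPKM over all libraries, with C1qa, C1qb and C1qc at 0 in all SP and IMSP libraries) and 5 megakaryocyte genes (6.91 to 67.2) overlapped between the populations. The sum for 6 lymphoid genes was low but did not overlap, at 0.193 to 1.64 RPKM in G0M+ and 0.00721 to 0.180 RPKM in G0M- libraries, with Ebf1 at 0 in every library. Their part in the results was not tested, and in bulk RNA fewer cells of a type and less RNA per cell cannot be told apart. Imatinib libraries carry library numbers 1 to 6 and vehicle libraries 7 to 12, so treatment and library number cannot be told apart.

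The upstream sequences of 3 members that were lower in G0M+ cells are shown because each holds a binding motif of the family itself. RefSeq gives promoter windows (250 bases before to 50 after a transcript start, build GRCm38.p6) for 8 of the 10 members. These windows were searched on both strands for the E2F site (TTTCCCGC, TTTGGCGC, TTTCGCGC or TTTGCCGC) and for its core, the same letters without the first T, which therefore lies within every site. Below, the 250 bases before the start are given 5′ to 3′ on the strand of the gene, with E2F sites or cores in capitals, for E2f7 (chr10:110745189-110745438, plus strand), E2f8 (chr7:48881597-48881846, minus strand) and Tfdp1 (chr8:13338501-13338750, plus strand).
E2f7: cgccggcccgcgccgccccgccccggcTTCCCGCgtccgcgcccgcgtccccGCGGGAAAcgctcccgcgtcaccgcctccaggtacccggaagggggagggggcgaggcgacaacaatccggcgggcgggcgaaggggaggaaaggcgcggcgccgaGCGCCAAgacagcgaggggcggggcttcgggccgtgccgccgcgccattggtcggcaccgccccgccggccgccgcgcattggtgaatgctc
E2f8: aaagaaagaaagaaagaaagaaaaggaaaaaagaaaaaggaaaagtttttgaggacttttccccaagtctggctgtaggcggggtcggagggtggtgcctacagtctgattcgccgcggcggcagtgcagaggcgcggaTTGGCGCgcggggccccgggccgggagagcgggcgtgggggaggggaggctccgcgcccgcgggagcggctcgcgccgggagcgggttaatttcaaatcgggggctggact
Tfdp1: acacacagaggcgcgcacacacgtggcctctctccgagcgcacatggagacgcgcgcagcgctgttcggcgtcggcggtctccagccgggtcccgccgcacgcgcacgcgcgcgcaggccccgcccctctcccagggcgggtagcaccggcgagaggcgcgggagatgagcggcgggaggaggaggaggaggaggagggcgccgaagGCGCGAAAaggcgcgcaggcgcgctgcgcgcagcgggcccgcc

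The full site was found in the windows of 4 of the 8 members (E2f2, E2f3, E2f7 and Tfdp1), against 2.26% of all 32851 windows, and the core in 5 (E2f8 in addition), against 9.57%. A member was counted where any of its windows matched, and E2f2, E2f3, Tfdp1 and Tfdp2 have 2 windows each. The shares are per window, so members and windows are not counted alike, here and for the motifs below. E2f7 held 3 matches to the core, 1 of them within a full site. The core of E2f8 overlaps a CCAAT box read on the other strand, and 20 bases before its start E2f8 also held TTTGAA on the opposite strand, the CHR element through which MuvB complexes act. TTTGAA was found in the windows of 3 of the 8 members (E2f2, E2f3 and E2f8) and in 17.89% of all windows, and CCAAT in 4 (E2f2, E2f3, E2f7 and E2f8) and 37.41%. The TTTGAA of E2f2 lay only in its window 2, which is inside the annotated gene. E2f1, E2f6 and Tfdp2 held none of these motifs in their RefSeq windows, and those of E2f1 and Tfdp2 lie inside the gene as GENCODE M21 annotates it. A match is a description of the letters and not of binding. The windows shown end at the base before the annotated gene, which spans chr10:110745439-110787384 for E2f7, chr7:48866429-48881596 for E2f8 and chr8:13338751-13378448 for Tfdp1, all protein-coding.

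Among all members, Tfdp1 had the highest level and E2f4 the second highest in each of the 4 groups, with no overlap between their libraries or with the next gene (per length, in RPKM). Next came E2f1 in DP and IMDP cells (means 6.88 and 5.58 RPKM) and E2f8 in SP and IMSP cells (8.32 and 9.14 RPKM). E2f1 overlapped the gene below it in DP and IMDP cells, whereas E2f8 stood clear of the gene below it in SP and IMSP cells. E2f2 was the lowest in each group (means 0.756 to 1.68 RPKM), and its libraries overlapped those of the next gene in SP, IMDP and IMSP cells. E2f7 varied most over the 12 libraries, 9.51-fold from 0.695 to 6.61 RPKM, followed by E2f8 (6.50-fold) and E2f2 (5.24-fold), and E2f6 varied least (1.57-fold).

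**Figure D1:**
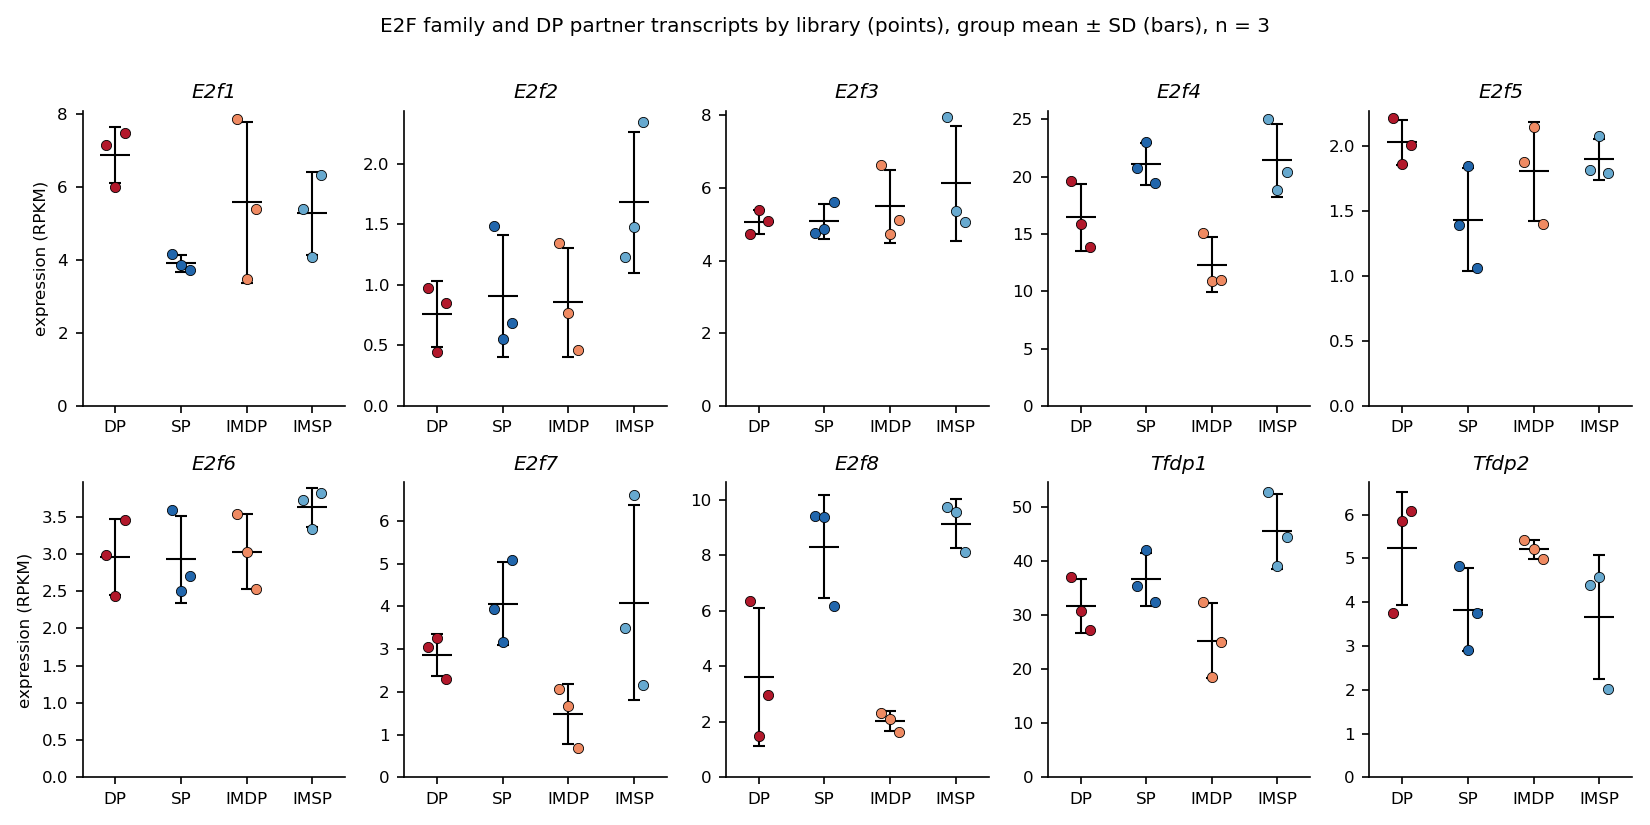
Expression in RPKM (y axis, linear from 0) of each E2F and DP gene in the 3 libraries of each group (points), with group mean and SD (bars). E2f8 lies at 1.62 to 2.32 RPKM in IMDP and 8.12 to 9.75 in IMSP cells, and E2f1 at 6.00 to 7.48 in DP and 3.71 to 4.17 in SP cells.

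The comparison of DP with SP cells asks how quiescent and cycling leukemic cells differ without treatment. E2f1, the activator best known for driving entry into S phase, stood at 7.15, 6.00 and 7.48 RPKM in DP cells and at 4.17, 3.86 and 3.71 RPKM in SP cells. Every DP library was above every SP library, as for 9.68% of all genes, but the difference did not pass the test over all genes (log2 fold change 0.79, SE 0.25, limma adjusted p = 0.179). The 95% interval of 0.24 to 1.34 is for this gene alone. When only DP and SP libraries were fitted the adjusted p was 0.0415, and with libraries of neighbouring number as a block it was 0.0196.

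E2f2, a second activator, had 0.970, 0.447 and 0.851 RPKM in DP and 1.49, 0.554 and 0.683 RPKM in SP cells, and the groups overlapped (log2 fold change -0.18, 95% interval -1.18 to 0.82). E2f3, the last of the activators, lay at 4.72 to 5.38 RPKM in DP and 4.75 to 5.62 RPKM in SP cells and also overlapped (log2 fold change 0.00, interval -0.41 to 0.41). Of the 3 activators, E2f1 alone had DP and SP libraries that did not overlap.

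Of the repressors, E2f8 showed the widest difference. It stood at 6.35, 1.50 and 2.97 RPKM in DP cells and at 9.42, 9.37 and 6.16 RPKM in SP cells (log2 fold change -1.39, SE 0.39, adjusted p = 0.107). DP replicate 1 overlapped the lowest SP library, and the other 2 DP libraries were below all SP libraries. DP replicate 1 also held the most Mki67 (21.2 against 10.9 and 12.0 RPKM), the most Ccna2 (11.0 against 1.52 and 1.93 RPKM) and, of the DP libraries, the highest sums of mast cell and basophil genes (271 against 69.4 and 62.4 RPKM), neutrophil genes (1310 against 65.2 and 228 RPKM) and megakaryocyte genes (67.2 against 26.4 and 33.5 RPKM), and their part in the E2f8 value was not tested. Without this library the log2 fold change was -1.90 with an adjusted p of 0.00278, and with libraries of neighbouring number as a block the adjusted p over all libraries was 0.00773.

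E2f4, the main repressor of resting cells, had 19.7, 15.8 and 13.9 RPKM in DP and 20.8, 23.1 and 19.5 RPKM in SP cells, and DP replicate 1 overlapped SP cells (log2 fold change -0.37, adjusted p = 0.401). E2f5, its close relative, was higher in all DP libraries (1.86 to 2.21 RPKM) than in all SP libraries (1.06 to 1.85 RPKM) and did not pass the test (log2 fold change 0.50, adjusted p = 0.374). E2f6, the Polycomb-linked repressor, lay at 2.43 to 3.46 RPKM in DP and 2.50 to 3.59 RPKM in SP cells and overlapped. E2f7, the other atypical repressor, lay at 2.31 to 3.25 RPKM in DP and 3.17 to 5.09 RPKM in SP cells and overlapped as well (log2 fold change -0.48, adjusted p = 0.632). Tfdp1 and Tfdp2 overlapped between DP and SP cells too, with log2 fold changes of -0.21 (interval -0.66 to 0.24) and 0.44 (interval -0.21 to 1.08).

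In all, 0 of the 10 members passed the threshold of an adjusted p of 0.05 in DP against SP cells, where 2.26% of all 10072 genes tested did, and 3 (E2f1 and E2f5 higher, E2f8 lower) had an unadjusted p under 0.05, against 13.2% of all genes. The median log2 fold change of the members was -0.09, against -0.02 for all genes.

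Under imatinib the same comparison asks how the persisting G0M+ cells differ from G0M- cells. E2f8, an atypical repressor, stood at 2.32, 2.12 and 1.62 RPKM in IMDP cells and at 9.75, 9.56 and 8.12 RPKM in IMSP cells. The groups lay far apart and did not overlap. E2f8 fell to 0.228 times the IMSP level (log2 fold change -2.13, SE 0.39, adjusted p = 0.00364). It kept this call without any single library (adjusted p 0.000277 to 0.0201).

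E2f7 stood at 2.07, 1.68 and 0.695 RPKM in IMDP cells and at 3.49, 6.61 and 2.17 RPKM in IMSP cells. The highest IMDP library lay just below the lowest IMSP library. E2f7 fell by 1.38 on the log2 scale (SE 0.41, adjusted p = 0.0300), but the call was lost with libraries scaled to one median (adjusted p = 0.0712) or one sum (0.112), with voom (0.0741), with only these groups fitted (0.0779), and without IMDP replicate 2 (0.0579), IMDP replicate 3 (0.104), IMSP replicate 1 (0.0821) or IMSP replicate 2 (0.0866). The exons of E2f5, E2f7 and E2f8 overlap a gene on the opposite strand (1810022K09Rik, 1700020G17Rik and Gm2788), and since strand is not stated for these libraries, reads of such a pair cannot be told apart.

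E2f4, the most abundant E2F transcript, had 15.1, 10.9 and 11.0 RPKM in IMDP cells and 25.0, 18.8 and 20.4 RPKM in IMSP cells. All IMDP libraries were below all IMSP libraries, as for 32.8% of all genes, and E2f4 fell by 0.80 on the log2 scale (SE 0.18, adjusted p = 0.00934). Tfdp1, the main DP partner, had 32.4, 18.5 and 25.0 RPKM in IMDP and 52.8, 39.2 and 44.5 RPKM in IMSP cells, again without overlap. It fell by 0.87 (SE 0.20, adjusted p = 0.0122). Without IMSP replicate 1, the library highest in both genes, the adjusted p was 0.0502 for E2f4 and 0.0602 for Tfdp1.

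The remaining members did not pass the test in this comparison. E2f1 had 7.87, 3.47 and 5.41 RPKM in IMDP and 5.40, 4.09 and 6.34 RPKM in IMSP cells, so the IMDP libraries spread across the whole IMSP range (log2 fold change 0.03, interval -0.53 to 0.58, adjusted p = 0.948). E2f2 lay at 0.460 to 1.35 RPKM in IMDP and 1.23 to 2.34 RPKM in IMSP cells and overlapped (log2 fold change -0.96, adjusted p = 0.140). E2f3, E2f5 and E2f6 overlapped as well, with log2 fold changes of -0.14, -0.09 and -0.26 that turned to 0.13, 0.18 and 0.01 with libraries scaled to one median.

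Tfdp2, which encodes the second DP partner, had 5.42, 5.22 and 4.98 RPKM in IMDP and 4.39, 4.58 and 2.03 RPKM in IMSP cells. Every IMDP library was above every IMSP library, as for 6.21% of all genes, in contrast to Tfdp1, but the difference did not pass the test (log2 fold change 0.58, interval -0.07 to 1.23, adjusted p = 0.168). It did so when libraries were scaled to one sum (adjusted p = 0.0480) or blocked by neighbouring number (0.0404). The ratio of Tfdp1 to Tfdp2 was between 3.55 and 5.97 in IMDP libraries, below the 8.56 to 22.0 of IMSP libraries, and it overlapped between DP (4.47 to 9.86) and SP libraries (7.34 to 14.4).

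Thus 4 of 10 members fell and 0 rose in IMDP against IMSP cells, where 23.3% of all genes tested fell and 2.37% rose (25.6% together). The members' median log2 fold change was -0.53, against -0.25 for all genes. The cause of that general shift was not tested. IMDP libraries had 25.2% to 30.2% of their reads on listed features against 30.0% to 36.1% in the other groups. With libraries scaled to one median, which fixes the general shift in advance, the median of all genes was 0.02. Of the called genes 40.7% were then higher instead of 9.26%. With the unscaled median of all genes (-0.25) subtracted, the log2 fold changes were -1.88 for E2f8, -1.13 for E2f7, -0.62 for Tfdp1 and -0.55 for E2f4. With scaled libraries E2f8 (adjusted p = 0.00739), E2f4 (0.0314) and Tfdp1 (0.0394) still passed.

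**Figure D2:**
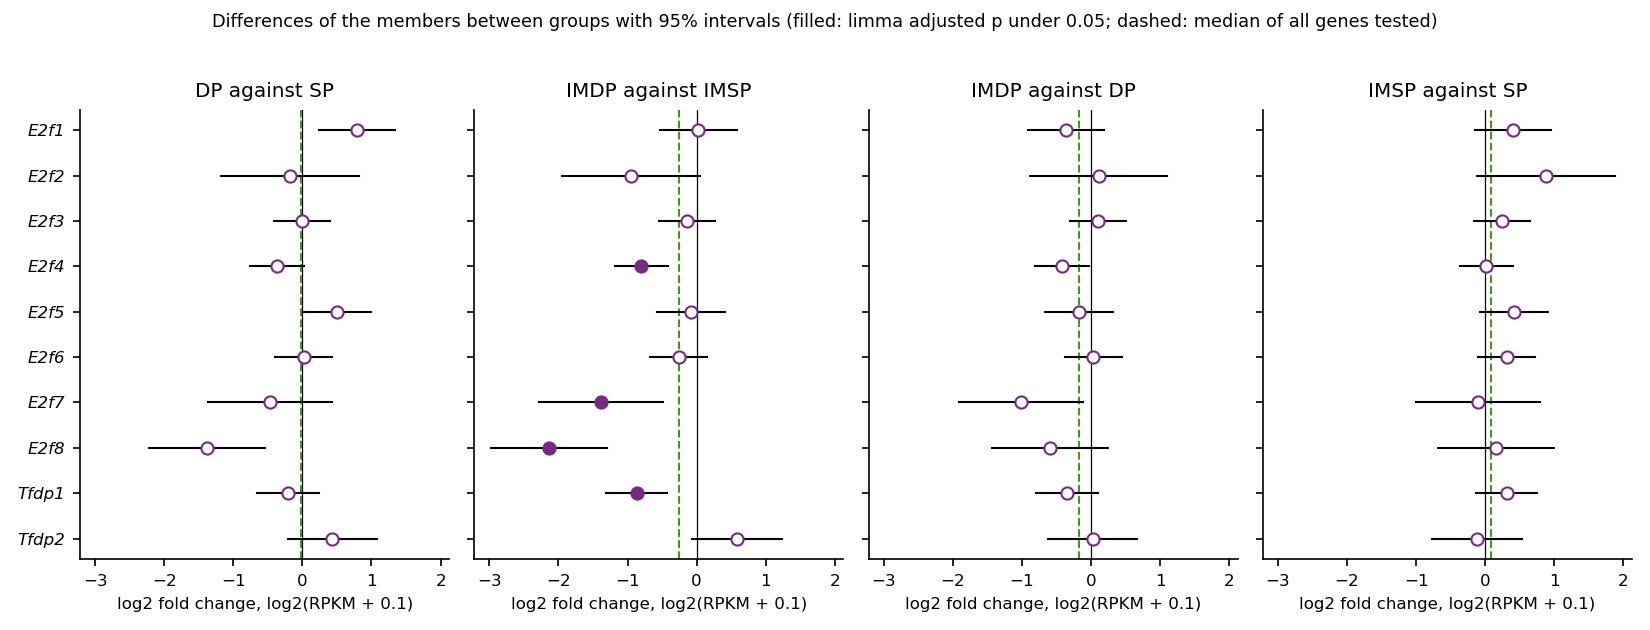
Log2 fold change of each member on the log2(RPKM + 0.1) scale (x axis) with its 95% interval in 4 comparisons, filled where the limma adjusted p was under 0.05, with the median of all genes as a dashed line. Only E2f4, E2f7, E2f8 and Tfdp1 in IMDP against IMSP cells are filled. E2f1, E2f3, E2f5 and Tfdp2 sit to the right of the dashed line in both population comparisons, E2f3 by only 0.01 in DP against SP.

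Averaged over treatments, the comparison of G0M+ with G0M- libraries (6 against 6) called the same 4 members lower and 0 higher, with 21.0% of all genes lower and 5.32% higher (26.3% together). The log2 fold changes were -1.76 for E2f8 (SE 0.27, adjusted p = 0.00116), -0.93 for E2f7 (SE 0.29, adjusted p = 0.0357), -0.58 for E2f4 (SE 0.12, adjusted p = 0.00722) and -0.54 for Tfdp1 (SE 0.14, adjusted p = 0.0192). E2f8 and E2f4 kept their call without any single library. Tfdp1 lost it without DP replicate 3 (adjusted p = 0.0534) or IMSP replicate 1 (0.0535), and E2f7 without any of 7 libraries (0.0572 to 0.0852: DP replicates 2 and 3, IMDP replicate 3, IMSP replicates 1 and 2, SP replicates 1 and 3). E2f7 also lost it with no filter on low genes (0.0557) and with libraries scaled to one median (0.0609) or to one sum (0.0977).

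E2f1 and Tfdp2 were the members nearest to a rise in this averaged comparison. Their log2 fold changes were 0.41 (adjusted p = 0.107) and 0.51 (adjusted p = 0.0909). Both passed with libraries scaled to one median (0.0343 and 0.0341), where 47.3% of all called genes were higher instead of 20.2%, with limma-voom on the recovered reads (0.0331 and 0.0301), with libraries scaled to one sum (0.0148 and 0.0296) and with libraries of neighbouring number as a block (0.0172 and 0.0162). E2f1 also passed without IMDP replicate 2 (0.0234) and Tfdp2 without DP replicate 1 (0.0476).

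The comparison of IMDP with DP cells asks what imatinib changed in the quiescent cells. E2f7 went from 2.31 to 3.25 RPKM in DP to 0.695 to 2.07 RPKM in IMDP cells without overlap, as for 19.0% of all genes, and did not pass the test (log2 fold change -1.02, adjusted p = 0.199). E2f4 overlapped between the groups (log2 fold change -0.42, adjusted p = 0.212). E2f1 had a log2 fold change of -0.37 (interval -0.92 to 0.19) and E2f8 of -0.59 (interval -1.43 to 0.25). In all, 0 of 10 members passed, where 0.367% of all genes did, and 2 (E2f4 and E2f7) had an unadjusted p under 0.05, against 20.5% of all genes.

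In the cycling cells, IMSP against SP, 0 of 10 members and 0% of all genes passed, and 0 members had an unadjusted p under 0.05, against 8.39% of all genes. The log2 fold changes ran from -0.12 for Tfdp2 to 0.89 for E2f2, whose interval was -0.11 to 1.88. E2f8 stood at 6.16 to 9.42 RPKM in SP and 8.12 to 9.75 RPKM in IMSP cells (log2 fold change 0.16, interval -0.68 to 1.00). Averaged over populations, 0 members differed between imatinib and vehicle, where 0.854% of all genes did, and 0 had an unadjusted p under 0.05, against 18.0% of all genes. The population difference itself was not shown to depend on treatment for any member (0 of 10, 0% of all genes). Tfdp1 alone among the 10 had an unadjusted p under 0.05 for that interaction, against 9.30% of all genes (difference of log2 fold changes -0.66, SE 0.29, adjusted p = 0.534).

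The balance of activators and repressors was then taken within each library, where a scaling factor of the library drops out of the ratios. E2f1 to E2f3 made up 27.3%, 32.2% and 35.2% of the summed E2f1 to E2f8 RPKM in DP cells and 21.0%, 18.8% and 22.5% in SP cells. The shares were 38.9%, 31.1% and 38.9% in IMDP cells and 25.0%, 21.3% and 27.4% in IMSP cells. Each G0M+ library was thus above each G0M- library of its treatment, and DP replicate 1 (27.3%) fell just below the highest IMSP library (27.4%). In RPKM the sum of E2f1 to E2f3 overlapped between IMDP (8.98 to 15.8) and IMSP libraries (10.9 to 14.6). That of E2f4 to E2f8 did not (17.2 to 24.9 and 36.3 to 43.8). Between DP and SP libraries neither sum overlapped (11.8 to 13.4 and 9.27 to 10.4 for E2f1 to E2f3, 24.6 to 34.3 and 34.5 to 40 for E2f4 to E2f8).

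E2f4 held 36.5% to 46.9% of the E2F total over the 12 libraries and overlapped between the populations of each treatment. IMDP (37% to 39%) and SP libraries (42% to 46.9%) did not overlap. E2f8 held 4.08% to 13.5% in the 6 G0M+ and 13.8% to 19.0% in the 6 G0M- libraries, and E2f5 4.60% to 7.43% and 2.38% to 4.05%, both without overlap. The share of E2f7 with E2f8, 8.22% to 19.9% in G0M+ and 20.6% to 31.5% in G0M- libraries, did not overlap either. That of E2f7 alone, 2.46% to 8.86% and 4.34% to 12.9%, did overlap. E2f1 held 12.0% to 19.7% and 7.84% to 12.7%, where IMDP replicate 2 overlapped IMSP replicate 3. E2f3 (16.3% to 18.1% in IMDP and 10.1% to 13.6% in IMSP libraries) and E2f6 (8.68% to 10.5% and 6.39% to 7.63%) did not overlap under imatinib but overlapped between DP and SP libraries. A share can rise without a rise in RPKM where the sum is lower, as it was in IMDP against IMSP libraries. In RPKM, E2f3, E2f5 and E2f6 overlapped between IMDP and IMSP cells, with log2 fold changes of -0.14, -0.09 and -0.26. The ratio of E2f1 to E2f8 was 1.13, 4.00 and 2.52 in DP and 0.443, 0.412 and 0.603 in SP libraries. In IMDP libraries it was 3.39, 1.64 and 3.33, and in IMSP libraries 0.554, 0.427 and 0.781. E2f1 exceeded E2f8 in every G0M+ library and was below it in every G0M- library.

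The mean log2 level of the activators minus that of the repressors, averaged over 3 libraries, was -0.36 and 0.02 in DP and IMDP cells and -0.91 and -0.55 in SP and IMSP cells. By library it was -0.55 to -0.18 in DP and -1.14 to -0.74 in SP cells, without overlap, and -0.35 to 0.26 in IMDP and -0.91 to -0.18 in IMSP cells, with overlap. With E2f4, E2f5 and E2f6 alone as repressors the means were -0.61 and -0.48, and -0.76 and -0.50, and the ranges of DP and SP and of IMDP and IMSP libraries overlapped. The summed E2F RPKM was 36.7 to 47.1 in DP and 44.5 to 49.5 in SP libraries, which overlapped, and 28.2 to 40.7 in IMDP and 50.1 to 58.4 in IMSP libraries, which did not, and Tfdp1 stood at 0.642 to 0.905 times that sum in all 12.

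**Figure D3:**
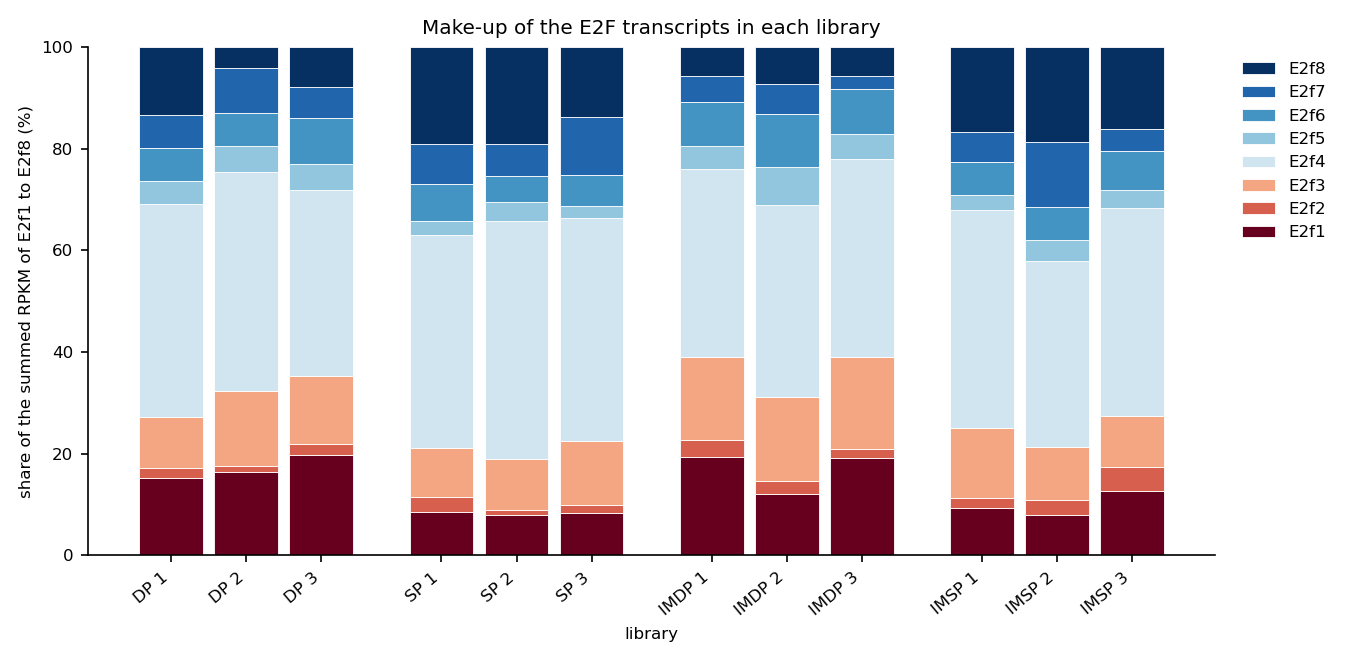
Share of each gene in the summed RPKM of E2f1 to E2f8 (y axis, percent) for each of the 12 libraries (bars). The reds (E2f1 to E2f3) reach 27.3% to 38.9% in G0M+ and 18.8% to 27.4% in G0M- libraries, and the darkest blues (E2f7 and E2f8) 8.22% to 19.9% and 20.6% to 31.5%.

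A set of 8 gene lists of the E2F pathway, 116 genes in all, was examined beside the members, and 111 of the genes were tested. Of these, 26 (23.4%) differed in DP against SP cells, against 2.26% of all genes, and 67 (60.4%) in IMDP against IMSP cells, against 25.6%. Between imatinib and vehicle, 2 differed in the DP population and 0 in the SP population. Averaged over treatments, 58 (52.3%) differed between G0M+ and G0M- cells, 56 lower and 2 higher, against 26.3% of all genes. The calls were uneven over the lists. In DP against SP cells, 19 of 20 genes of the G2 and M phases fell. Of 42 G1/S targets of E2F, 2 fell and 1 rose there. The lists of pocket proteins, the E2F6 complex, RB kinases and apoptosis targets had 0 calls in that comparison.

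The pocket proteins are the RB family that E2F proteins bind. Rb1 averaged 5.38 ± 1.33 RPKM in DP and 3.45 ± 0.158 RPKM in SP cells, and 4.58 ± 0.984 RPKM in IMDP and 3.95 ± 0.871 RPKM in IMSP cells. It was higher in every DP than in every SP library, and did not pass the test averaged over treatments (log2 fold change 0.41, SE 0.15, adjusted p = 0.0676). Rbl1 (p107), itself an E2F target, averaged 8.43 ± 0.780, 11.5 ± 0.694, 7.79 ± 2.71 and 14.4 ± 2.48 RPKM in the same order and fell in G0M+ cells (log2 fold change -0.68, SE 0.15, adjusted p = 0.00884). Rbl2 (p130), the pocket protein of resting cells, had a log2 fold change of 0.00 in that comparison (adjusted p = 0.995).

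The MuvB core joins p130 and E2F4 in the repressive DREAM complex and B-MYB or FOXM1 when genes of mitosis are switched on. The list of the core together with MYB and FOXM1 genes had 7 of 8 genes tested. Averaged over treatments 5 fell and 0 rose (median log2 fold change -0.74, against -0.13 for all genes), where 21.0% of all genes fell. Foxm1 fell by 3.11 (SE 0.26, adjusted p = 2.43e-05), from 9.28 and 10.4 RPKM in SP and IMSP to 1.70 and 0.756 RPKM in DP and IMDP cells. Mybl2 (B-MYB) fell by 1.21, and the core genes Lin9 and Lin54 by 0.83 and 0.74.

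The complex of E2F6 with Polycomb-like and MAX-MGA proteins had 12 genes tested, of which 2 fell averaged over treatments and 0 rose (median -0.15, against -0.13 for all genes), a share below the 21.0% of all genes that fell. These were L3mbtl2, a chromatin reader (log2 fold change -0.82, adjusted p = 0.00490), and Cbx3, a heterochromatin protein (-0.49, adjusted p = 0.0474), whose call was lost with libraries scaled to one median (0.0792) and in 9 of the 12 fits without 1 library. Among 13 tested RB kinases, cyclins and inhibitors, 3 fell and 0 rose (median -0.08), a share near that of all genes: the inhibitor Cdkn2d, the kinase Cdk4 and the cyclin Ccne1, with log2 fold changes of -0.77, -0.48 and -0.71, and scaling to one sum ended all 3 calls (adjusted p = 0.0967, 0.0527 and 0.0993), scaling to one median that of Ccne1 (0.0618) and voom those of Cdkn2d (0.102) and Ccne1 (0.0864). Ccnd3, a D-type cyclin, fell in IMDP against IMSP cells (-0.45, adjusted p = 0.0416, and 0.474 with libraries scaled to one median) and had an adjusted p of 0.164 in the averaged comparison.

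Of 10 cofactors and factors of E2F turnover, 7 fell and 0 rose averaged over treatments (median -0.50, against -0.13 for all genes), where 21.0% of all genes fell. Ccnf (cyclin F), which marks E2F proteins for degradation, fell by 2.79 on the log2 scale, Ccna2 (cyclin A), whose kinase switches off activator E2Fs, by 3.47, and Fzr1 (CDH1), an activator of the anaphase-promoting complex, by 1.37. Hcfc1, a cofactor that brings histone-modifying enzymes to E2F1, fell by 0.64.

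Targets of E2F at the G1/S transition and genes of the G2 and M phases, many of them under MuvB control, were examined as separate lists. Of 42 G1/S targets tested in DP against SP cells, 2 fell (among them Tk1, thymidine kinase, -0.75, adjusted p = 0.0229) and 1 rose (Ung, uracil-DNA glycosylase, 2.05, adjusted p = 0.00260), with a median of 0.01, against -0.02 for all genes. Leaving out any of 6 libraries ended the call of Tk1 (all 3 replicates of DP and of SP, adjusted p 0.0515 to 0.115), and Ung kept its call without any single library. Of 20 G2/M genes, 19 fell and 0 rose, with a median of -2.86. Mki67 and Top2a, a topoisomerase of dividing cells, fell by 1.94 and 2.36.

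In IMDP against IMSP cells, 27 of the 42 G1/S targets fell and 1 (Ung) rose, with a median of -0.73, against -0.25 for all genes, and all 20 G2/M genes fell, with a median of -3.83. The number of G1/S targets that fell was 19 with libraries scaled to one median and 14 when scaled to one sum, and it was 17, 17 and 15 without IMDP replicate 2, IMDP replicate 3 and IMSP replicate 1. Tk1 had 17.6 ± 2.78 RPKM in IMSP and 4.76 ± 0.589 in IMDP cells, and Rrm1, a ribonucleotide reductase subunit, 55.7 ± 7.48 and 19.0 ± 5.19 RPKM. Both fell (log2 fold changes -1.86 and -1.57, adjusted p = 3.95e-05 and 0.000350). In IMDP against DP cells 0 of the 42 G1/S targets passed, with a median of -0.45, against -0.17 for all genes, but 14 fell without IMDP replicate 1 (median -0.68). The G2/M genes Cenpa and Ccnb2 fell by 1.74 and 2.50 (both adjusted p = 0.0468), calls that 6 of the alternative settings and 10 of the 12 fits without 1 library did not make.

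Ung was the G1/S target that rose. It averaged 7.27 ± 0.777 RPKM in DP against 1.70 ± 0.375 RPKM in SP cells and 6.35 ± 1.96 RPKM in IMDP against 3.02 ± 0.465 RPKM in IMSP cells, and rose in G0M+ cells by 1.53 on the log2 scale (SE 0.17, adjusted p = 7.51e-05). Among 8 tested apoptosis genes that E2F1 is known to activate, 1 rose and 2 fell averaged over treatments (median -0.06, against -0.13 for all genes). Of all genes 5.32% rose and 21.0% fell. Trp53inp1, a p53 cofactor in stress, rose (1.29, SE 0.28, adjusted p = 0.00775). Apaf1, the apoptosome scaffold, and Pmaip1 (NOXA), a BH3-only protein, fell (-0.34 and -1.25, adjusted p = 0.0381 and 0.0389). Neither passed with libraries scaled to one median (0.153 and 0.0670), and each lost its call in 8 of the 12 fits without 1 library. Bcl2l11 (BIM), another BH3-only protein, had a log2 fold change of 0.85 (adjusted p = 0.0706).

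**Figure D4:**
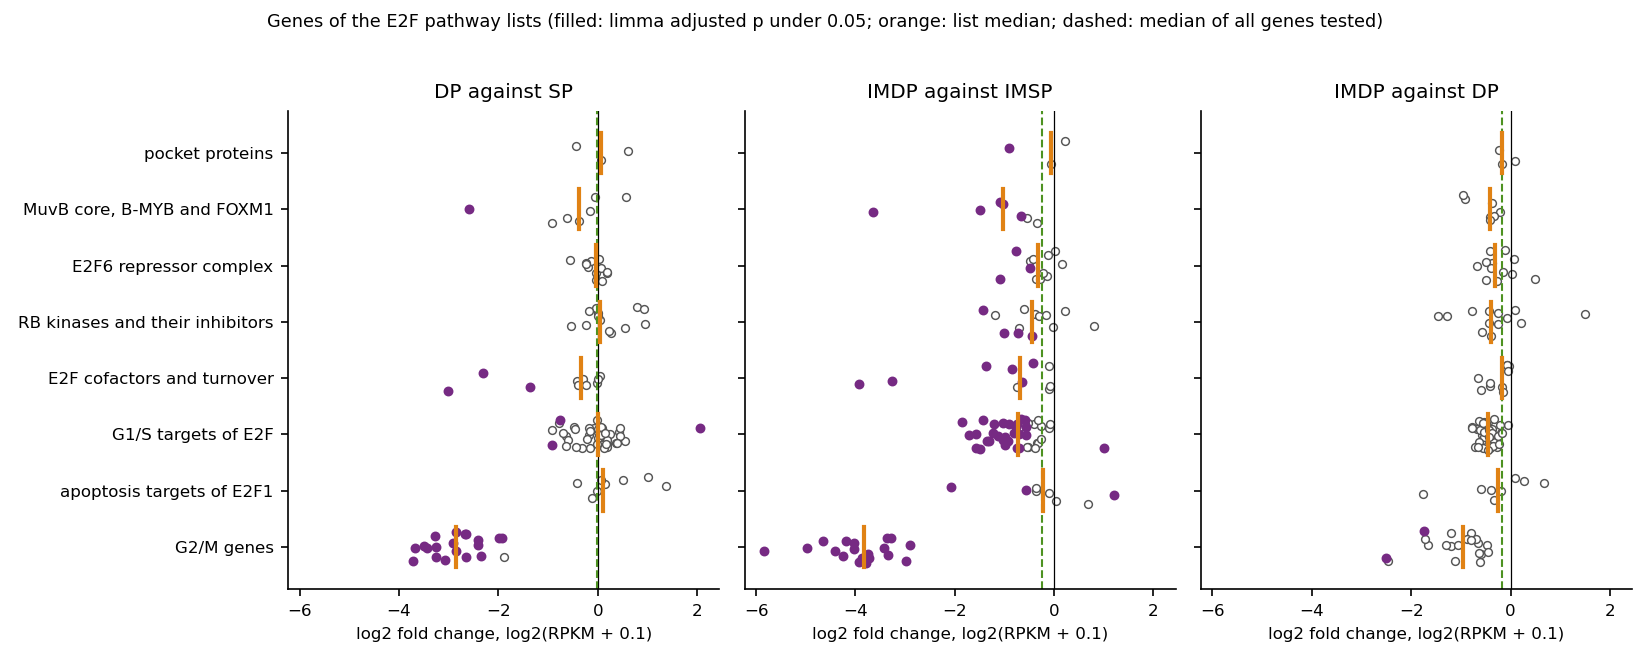
Log2 fold change (x axis, log2(RPKM + 0.1) scale) of every tested gene of 8 E2F pathway lists in 3 comparisons, filled where the limma adjusted p was under 0.05, with the list median in orange and the median of all genes dashed. The G1/S list is centered at 0.01 in DP against SP and at -0.73 in IMDP against IMSP cells, and the G2/M list at -2.86 and -3.83.

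The genes whose pattern over the 12 libraries was most like that of a member are given by Pearson correlation of log2(RPKM + 0.1) with 10071 other genes, as a description, since the libraries of a group share their sort and treatment. E2f8 was nearest to Rab5c (0.98), Arhgap19 (0.97) and Kif20a (0.97), the last a G2/M gene. E2f4 was nearest to Ruvbl2, Sec13 and Mogs (0.98 each) and Tfdp1 to Efhd2 (0.99), Zbed4 (0.98) and Umps (0.98). E2f7 was nearest to Ttc9c (0.96), Clic4 (0.95) and Polr2m (0.95).

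The other members had looser neighbours. E2f1 was nearest to Zmynd19 (0.90), Itgb7 (0.89) and Kctd12 (0.88), and Tfdp2 to Slfn8 (0.94), Sdsl (0.94) and Gimap1 (0.93). E2f2 and E2f6 were near each other (0.91), E2f2 also to Fancl (0.88) and Trpc4ap (0.87) and E2f6 to Fancl (0.94) and Tmem243 (0.89). E2f3 was nearest to Abca2 (0.91), Rcn2 (0.85) and Fam175a (0.84), and E2f5 to Tcta (0.89), Pigc (0.85) and Sat1 (0.83).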

How the data were processed

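RNA from 12 libraries of 100 sorted cells each was sequenced on a NextSeq after not-so-random priming and Nextera XT preparation. The authors deposited 1 table of RPKM values per library (reads per kb of transcript, scaled to the reads of the library). The methods name CLC Genomics Workbench with the mouse genome GRCm38/mm10, and a reporting summary names HISAT2 and featureCounts. edgeR, named in the submitters' processing notes, needs counts and was not used. The strand setting is not given in the sources used here.

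Low RPKM values were whole multiples of 1 read for 17732 of 17735 features above 0 (within 0.02), which gave depths of 11.4 to 20.6 M reads (mega-reads). PCR copies were not marked, so depth covers counting error only. Numbered copies were summed to 46103 genes, and 10072 genes that reached 1 RPKM in 3 or more libraries were tested on log2(RPKM + 0.1) with limma 3.58.1 (trend, 4 group means, Benjamini-Hochberg adjustment over all genes, threshold 0.05) in R 4.3.3. Fold changes are on that scale, which understates those of low genes. Intervals are 95% intervals of the fit for each gene alone. Tables were made with Python 3.11.15, pandas 2.3.3 and numpy 2.4.6, and figures with matplotlib 3.10.9. The tests were also run on simulated data.

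Groups came from the sample titles. Whether replicate numbers pair libraries was checked by correlating deviations from group means. Same-numbered IMDP and IMSP libraries gave 0.43, 0.65 and 0.46, and same-numbered DP and SP libraries -0.19, -0.30 and -0.10, whereas DP and SP libraries of neighbouring library number gave 0.50, 0.51 and 0.52. Alternatives were no filter, a pseudocount of 1 RPKM, fitting only the groups compared, replicate and library-number blocks, scaling to one median or one sum, limma-voom on the recovered reads, copies kept apart and leaving out each library. The members and gene lists were chosen with earlier results of these data known. Of the pathway lists, all pocket proteins were named, and of each other list the 4 genes with the smallest p averaged over treatments and up to 2 others called in IMDP against DP or IMSP against SP cells. A gene that this rule names is not reported here. For each member the 3 genes with the highest Pearson correlation were named. Sequences are from RefSeq and gene positions from GENCODE M21, both GRCm38.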

Additional observations from a re-analysis of the deposited data

How the results depend on the processing

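With a replicate block (same-numbered libraries), every call on a member was kept and E2f8 in IMDP against IMSP cells had a log2 fold change of -2.13 (limma adjusted p = 0.00289). The block by neighbouring library number, a pairing read from the data and not from the labels, called 2 members in DP against SP cells (E2f1 and E2f8, against 0) and raised the genes called from 228 to 980 there, from 2581 to 4446 in IMDP against IMSP cells and from 2648 to 4721 averaged over treatments. Fitting only the groups compared called 1 member in DP against SP cells (E2f1) and 1553 genes in IMDP against IMSP cells.

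Apart from leaving out single libraries, only scaling to one median or one sum and voom changed the sign of any member. In IMDP against IMSP cells 1559, 1583 and 1561 genes were called with libraries scaled to one median, to one sum and with voom, of which 40.7%, 61.0% and 47.6% were higher. Averaged over treatments 47.3%, 62.5% and 48.4% were higher instead of 20.2%, and between imatinib and vehicle 162, 246 and 149 genes were called against 86 (54 with no filter, 59 with the replicate block). In IMDP against DP cells 2, 14 and 10 genes were called against 37, and 0 when only those groups were fitted. The sum scaling left 43 pathway genes called in IMDP against IMSP cells, where 67 had been. Between IMDP and DP cells 0 pathway genes instead of 2 were called with no filter, a pseudocount of 1, only the groups compared, the median, the sum or voom, and between imatinib and vehicle 2, 1 and 1 were called with the median, the sum and voom, against 0.

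The members that changed sign with the median, the sum and voom were all uncalled. E2f3 had 0.04, 0.07 and 0.02 in DP against SP, 0.13, 0.28 and 0.12 in IMDP against IMSP, 0.09, 0.17 and 0.07 averaged over treatments, and 0.10, 0.21 and 0.10 for the interaction. E2f4 had -0.07, -0.04 and -0.08 in IMSP against SP. E2f5 had 0.18, 0.32 and 0.20 and E2f6 0.01, 0.15 and 0.01 in IMDP against IMSP, and E2f6 0.03, 0.12 and 0.01 averaged over treatments. Tfdp1 had 0.01, 0.11 and 0.02 between imatinib and vehicle. The sum alone gave E2f5 0.11 in IMDP against DP, E2f6 0.06 for the interaction and Tfdp2 0.08 between imatinib and vehicle. The activator score averaged -0.61 in DP and -0.48 in IMDP cells with E2f4, E2f5 and E2f6 alone as repressors, and -1.20 in SP cells as the log2 ratio of mean RPKM.

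Leaving out each library, 0 to 1 members were called in DP against SP (1 without DP replicate 1), 1 to 4 in IMDP against IMSP (1, E2f8, without IMSP replicate 1) and 2 to 5 averaged over treatments. The pathway genes called ranged from 19 to 28, 47 to 80 and 50 to 66 in these comparisons, from 0 to 18 in IMDP against DP (18 without IMDP replicate 1) and from 0 to 2 between imatinib and vehicle. Of all genes, 900 (without IMSP replicate 1) to 2966 (without IMDP replicate 1) were called in IMDP against IMSP, against 2581. In IMDP against DP the range was 0 (without IMDP replicate 3) to 218 (without IMDP replicate 1), against 37. Uncalled members whose sign changed had these ranges. In DP against SP, E2f2 ran from -0.44 to 0.20, E2f3 from -0.05 to 0.07 and E2f6 from -0.10 to 0.17. In IMDP against IMSP, E2f1 ran from -0.26 to 0.32, E2f3 from -0.28 to 0.06 and E2f5 from -0.21 to 0.08. In IMDP against DP, E2f2 ran from -0.24 to 0.44, E2f3 from -0.04 to 0.20, E2f6 from -0.10 to 0.15 and Tfdp2 from -0.19 to 0.15. In IMSP against SP, E2f4 ran from -0.10 to 0.10, E2f7 from -0.52 to 0.26, E2f8 from -0.04 to 0.26 and Tfdp2 from -0.32 to 0.25. Averaged over treatments E2f3 ran from -0.14 to 0.03. Between imatinib and vehicle E2f1 ran from -0.12 to 0.17, E2f8 from -0.46 to 0.04, Tfdp1 from -0.12 to 0.08 and Tfdp2 from -0.16 to 0.14, and for the interaction E2f3 ran from -0.28 to 0.06 and Tfdp2 from -0.22 to 0.34. The causes of these changes were not tested. E2f5 rested on as few as 26 reads in a library and E2f2 on 35.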
